A study of Mus musculus with 4 samples.

Results

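The Par and Scribble cell polarity genes are 10 genes of the machinery that marks opposite sides of a cell and, in many stem cells, lets a division give unequal daughters: Pard3, Pard6a, Pard6b, Pard6g, Prkci, Prkcz, Llgl1, Dlg1, Scrib and Vangl2. They were chosen by symbol, and no value entered the rule, but earlier results of these data were known. Each symbol matched 1 of the 55487 gene identifiers in the deposited tables, and all 10 were among the 27551 genes that passed the filter on low counts. Their transcripts were measured by RNA sequencing of muscle stem (satellite) cells from mice carrying the Tg:Pax7-nGFP transgene, which labels nuclei of cells that express Pax7. The minced muscle had been given a vivo-morpholino, an antisense oligomer that enters cells unaided, during the first digestion, before the satellite cells were isolated. The 2 groups were the Numb exon 6 morpholino, which blocks inclusion of exon 6 of Numb, and the control morpholino. Tissue of 2 mice was split between the morpholinos, which gave 2 libraries per group, and all 4 shared the transgene, the tissue and the isolation. The labels give neither the age nor the sex of the animals.

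In animal cells the Par proteins sit on one side of the cell and the Scribble proteins on the other, and each set keeps the other away. On the Par side the scaffold PAR3 gathers PAR6 and an atypical protein kinase C (aPKC), and the kinase phosphorylates proteins such as LGL and NUMB so that they leave that part of the membrane. The Scribble side is built from SCRIB, DLG and LGL. VANGL2 belongs to planar cell polarity, which orients cells within the plane of a tissue. In satellite cells PAR3 and aPKC are known from asymmetric divisions, and VANGL2 from the symmetric divisions driven by Wnt7a. NUMB, the product of the targeted transcript, is a classical fate determinant placed by this machinery.

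Total estimated counts were 318663258 and 230431665 for the Numb exon 6 libraries of mouse 1 and mouse 2, and 355411827 and 306485954 for the control libraries. They are whole numbers derived from coverage. In each library more genes stood at 4 counts than at 3 or 5 and more at 8 than at 7 or 9, so about 4 counts may stand for 1 fragment, and the depth in fragments is not known. Of the marker lists, that of satellite cells had the highest sum: its 10 genes reached 11847 and 11903 TPM (a level scaled to transcript length and library) in the Numb exon 6 libraries, and 10170 and 10898 TPM in the controls. Most of each sum came from Sdc4, at 7328 and 7673 TPM with the Numb exon 6 morpholino and 6499 and 6991 TPM with the control. Pax7 had 50.9 and 59.7 TPM, against 37.0 and 51.4 TPM. Each of the 8 lists of markers of other cell types, like the satellite cell list, had a higher sum with the Numb exon 6 morpholino within both mice, and 0 markers were called. Those sums ran from 33.2 to 1733 TPM. Hemoglobin and the other erythroid genes summed to 928 and 1733 TPM with the Numb exon 6 morpholino, against 538 and 1532 TPM with the control. They were the highest except in the control library of mouse 1, where fibro-adipogenic progenitor markers summed to 729 TPM. Of the erythroid genes 5 of 5 were higher in both mice, beside 28.1% of all genes. For satellite cells this count was 6 of 10, for fibro-adipogenic progenitors 6 of 8, and for smooth muscle and pericytes 5 of 6. It was 3 of 8 for endothelium, 3 of 6 for glia, 3 of 8 for mature myofibres and 3 of 4 for tenocytes. Glial markers summed to 110 and 134 TPM in the Numb exon 6 libraries and 60.3 and 69.0 TPM in the controls. The 13 leukocyte markers summed to 43.8 and 134 TPM with the Numb exon 6 morpholino, against 33.2 and 38.03 TPM with the control. In the Numb exon 6 library of mouse 2, the neutrophil genes S100a8 and S100a9 gave 46.5 and 36.0 TPM of this sum. In both mice 9 of the 13 were higher and 2 lower, against 28.1% and 27.3% of all genes. Macrophage genes went both ways. Csf1r had 1.03 and 0.799 TPM with the Numb exon 6 morpholino and 1.34 and 1.40 TPM with the control. Adgre1, at low levels, had 0.192 and 0.0512 TPM, against 0.0233 and 0.00776 TPM, and Cd68 had 17.9 and 21.2 TPM, against 17.6 and 20.7 TPM. No marker stood at 0 in every library, and the part of these cells in the polarity values was not tested. In bulk RNA, fewer cells of a type and less RNA per cell cannot be told apart. Numb itself stood at 60.3 and 58.7 CPM (counts scaled to library size) with the Numb exon 6 morpholino, against 44.6 and 53.8 CPM with the control; values per gene do not show whether exon 6 was skipped.

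Start regions of the aPKC and Pard6 genes are shown here because these paralogues stood at very different levels. RefSeq windows of 300 bases (250 before the start to 50 after it, build GRCm38.p6) were used for 8 of the 10 genes; Pard6g and Scrib have none here. They are printed 5′ to 3′ on the strand of the gene, with every CG in capitals. The windows lie at chr3:30995521-30995820 (Prkci, plus strand), chr4:155361379-155361678 (Prkcz, minus strand, the outermost of its 3 windows), chr8:105700898-105701197 (Pard6a, plus strand, the outer of 2) and chr2:168080754-168081053 (Pard6b, plus strand).
Prkci: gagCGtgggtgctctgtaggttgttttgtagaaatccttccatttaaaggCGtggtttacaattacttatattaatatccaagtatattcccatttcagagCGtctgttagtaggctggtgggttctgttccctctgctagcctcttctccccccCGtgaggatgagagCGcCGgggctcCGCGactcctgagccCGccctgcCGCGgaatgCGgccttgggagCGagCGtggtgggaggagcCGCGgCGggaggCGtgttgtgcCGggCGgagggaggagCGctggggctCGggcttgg
Prkcz: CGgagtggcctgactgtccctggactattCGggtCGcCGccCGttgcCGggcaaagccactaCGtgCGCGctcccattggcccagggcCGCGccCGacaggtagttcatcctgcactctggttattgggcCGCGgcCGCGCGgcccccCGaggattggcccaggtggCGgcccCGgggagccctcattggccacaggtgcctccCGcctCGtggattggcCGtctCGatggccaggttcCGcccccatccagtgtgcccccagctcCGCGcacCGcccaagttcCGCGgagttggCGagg
Pard6a: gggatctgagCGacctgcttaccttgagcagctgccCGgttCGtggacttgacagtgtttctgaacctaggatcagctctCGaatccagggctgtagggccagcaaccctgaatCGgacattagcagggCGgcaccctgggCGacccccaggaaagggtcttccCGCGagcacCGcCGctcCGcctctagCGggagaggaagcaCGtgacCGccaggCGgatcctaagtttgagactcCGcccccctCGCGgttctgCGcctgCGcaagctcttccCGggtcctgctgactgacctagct
Pard6b: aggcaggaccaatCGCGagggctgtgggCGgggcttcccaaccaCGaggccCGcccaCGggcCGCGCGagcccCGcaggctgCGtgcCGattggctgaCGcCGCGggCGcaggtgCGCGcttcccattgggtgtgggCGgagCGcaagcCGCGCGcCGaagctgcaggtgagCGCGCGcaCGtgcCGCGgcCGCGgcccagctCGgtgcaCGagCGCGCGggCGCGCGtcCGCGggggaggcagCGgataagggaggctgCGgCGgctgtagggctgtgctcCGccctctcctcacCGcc

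The window of Prkci holds 22 CG, that of Prkcz 31, that of Pard6a 22 and that of Pard6b 47, against a median of 7 over all 32851 windows. At least 47 CG occur in 1.44% of all windows, and at least 31 in 10.6%. Starts of one gene differed: the other windows of Prkcz hold 13 and 14 CG, fewer than that of Prkci, and the second of Pard6a holds 26. No order of CG against level is therefore read from these paralogues. The letters TGGGAA, the core bound by the Notch effector RBPJ, were searched on both strands; they occur once in the window of Prkci, 2 times in that of Pard6b and 0 times in the printed windows of Prkcz and Pard6a, but once in another window of Prkcz. They occur in 25.6% of all windows. CAGCTG, an E-box that MyoD can bind and a palindrome, occurs once in the window of Pard6a and 0 times in the other three printed, but once in the same further window of Prkcz, against 16.3% of all windows. These matches describe letters in a window and do not show binding.

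Per unit of length, the aPKC gene Prkci was the most abundant of the 10, and a small set of scaffolds followed it. Mean levels over the 4 libraries were 20.7 ± 1.65 TPM for Prkci, 14.4 ± 2.68 for Dlg1, 11.7 ± 0.71 for Llgl1, 10.1 ± 2.30 for Scrib and 8.30 ± 0.25 for Pard3 (SD, n = 4 libraries of 2 mice). The second tier held Pard6g at 3.36 ± 0.70 TPM, Pard6a at 1.75 ± 0.79 and Vangl2 at 1.304 ± 0.556. Prkcz and Pard6b closed the order at 0.147 ± 0.154 and 0.109 ± 0.120 TPM. The ranges of neighbours over the 4 libraries overlapped, with 2 exceptions. The lowest value of Pard3 lay above the highest of Pard6g, and the lowest of Vangl2 above the highest of Prkcz. Compared within each library, Prkci also lay above Dlg1, Dlg1 above Llgl1, and Pard6g above Pard6a in every library. These levels count every transcript of a gene, short ones included, and the order of long transcripts alone was not tested. Prkci was above 81.6% of the tested genes and Pard6b above 13.8%.

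**Figure D1:**
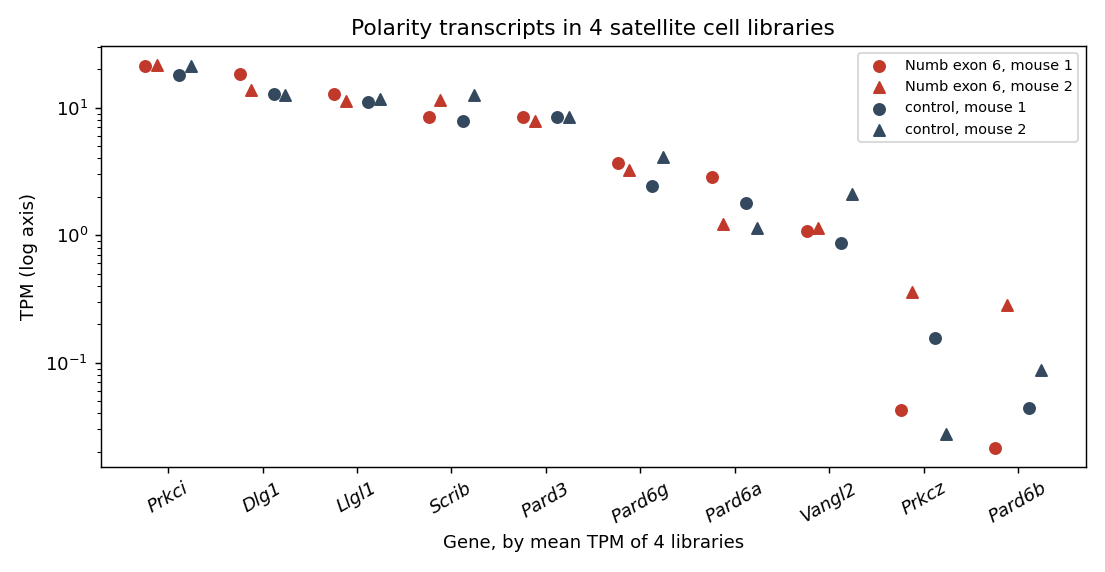
TPM of the 10 polarity genes on a log axis, 1 point per library, with red for the Numb exon 6 and dark blue for the control morpholino, circles for mouse 1 and triangles for mouse 2. Prkci, Dlg1, Llgl1, Scrib and Pard3 lie between 7.86 and 21.6 TPM, and Prkcz and Pard6b lie at or under 0.361 TPM with widely scattered points.

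The aPKC transcripts of these cells were almost all Prkci, the iota isoform. Prkci took 99.8% and 98.4% of the summed TPM of both aPKC genes in the Numb exon 6 libraries of mouse 1 and mouse 2, and 99.2% and 99.9% in the controls. Prkcz, the zeta isoform, had 27 and 67 estimated counts with the Numb exon 6 morpholino, and 62 and 18 with the control. Of the 50-base stretches in the annotated transcripts of Prkcz, 14.8% also occur in those of Prkcz2, so the level of Prkcz is uncertain in addition to being low. An antisense gene model, Gm27200, also overlaps the span of Prkcz, and the library kit does not mark strand. Prkcz2 was, however, the only other gene found to share 50-base stretches with the transcripts of Prkcz.

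The Pard6 pool, the adaptor between aPKC and the GTPase CDC42, was shared between Pard6g and Pard6a. Pard6g held 56.1% and 68.2% of the summed Pard6 TPM in the Numb exon 6 libraries and 57.0% and 76.9% in the controls. Pard6a held 43.6% and 25.8% with the Numb exon 6 morpholino, and 41.9% and 21.5% with the control. The share of Pard6a was thus lower in both libraries of mouse 2 than in either library of mouse 1, whichever the morpholino. Pard6b held 0.329% and 6.01% with the Numb exon 6 morpholino, and 1.02% and 1.66% with the control. Its estimated counts were 13 and 115 in the Numb exon 6 libraries and 29 and 48 in the controls. The transcripts of Pard6a are short, so by estimated counts, which grow with length, it took a mean of 15.1% instead of 33.2%.

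**Figure D2:**
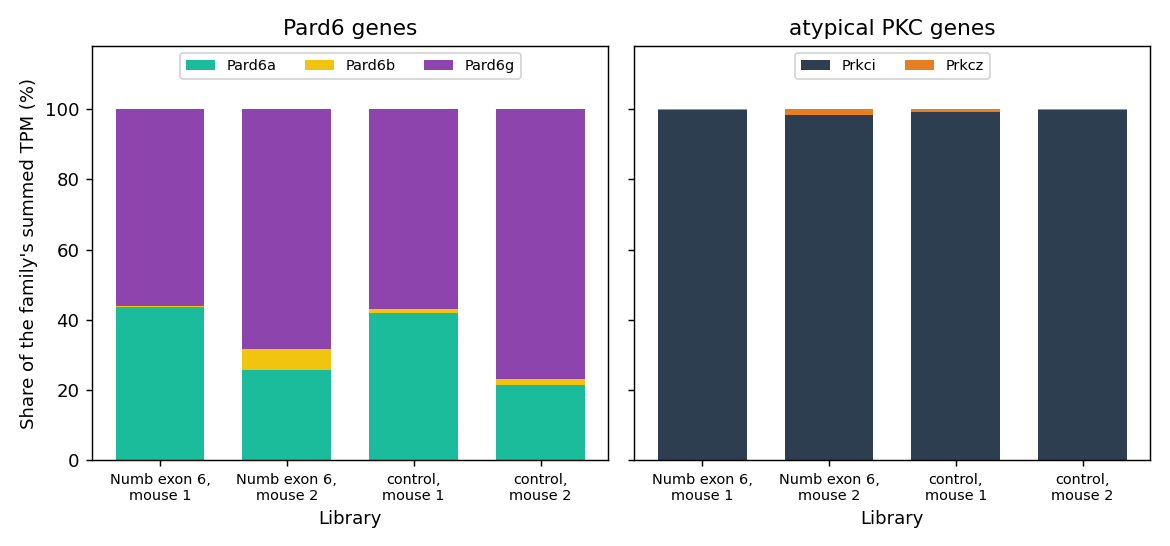
Share of each Pard6 gene (left) and each aPKC gene (right) in the summed TPM of its family, in percent, 1 bar per library with both Numb exon 6 libraries left of the controls. Prkci fills at least 98.4% of every aPKC bar, while Pard6a takes less of the bars of mouse 2 (25.8% and 21.5%) than of those of mouse 1 (43.6% and 41.9%).

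The other scaffolds also had paralogues in the tables. Pard3 made up 47.3% and 45.4% of the summed TPM of Pard3 and Pard3b in the Numb exon 6 libraries, and 40.5% and 42.5% in the controls. Pard3b, whose protein, unlike PAR3, does not bind aPKC, was therefore the more abundant of the pair in every library. Llgl1 made up 98.2% and 93.0% of the Lgl pair with the Numb exon 6 morpholino, and 94.7% and 98.9% with the control, the rest being Llgl2. Dlg1 was the most abundant of the 5 Dlg genes in every library, at 64.1% and 46.4% of their summed TPM with the Numb exon 6 morpholino and at 52.9% and 46.5% with the control. Vangl2 held 58.5% and 54.9% of the Vangl pair in the Numb exon 6 libraries and 45.4% and 72.5% in the controls, the rest being Vangl1.

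The deposited counts and TPM together give the mean length of the transcripts assigned to a gene, since the count of a transcript is its length times its TPM times 1 constant per library. Among genes with 1 annotated transcript and over 500 counts this held within 1% for at least 99.96% of genes. Scrib stood out by short transcripts: its mean length was 1985 and 1707 nt in the Numb exon 6 libraries, and 2078 and 2161 nt in the controls, while its longest annotated transcript has 5599 nt. That is 35.4% of the longest, and 2.02% of 11960 genes with several transcripts lay lower, around a median of 82.2%. Of the 12 transcripts of Scrib in the GENCODE vM21 annotation, 8 have 353 to 876 nt and 4 have 3071 to 5599 nt. For these lengths, the share of the TPM of Scrib that the 4 long transcripts could hold lies between 17.6% and 49.8% for mouse 2 with the Numb exon 6 morpholino, and between 27.2% and 66.5% in the control library of that mouse. In mouse 1 the bounds were 23.5% and 60.1% with the Numb exon 6 morpholino, and 25.5% and 63.5% with the control. The TPM of Scrib is therefore not a level of full-length transcript in any of the 4 libraries, provided that the authors counted on these transcript models.

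Dlg1 also lay far under its longest transcript of 6143 nt, with mean lengths of 2897 and 2690 nt in the Numb exon 6 libraries and of 2388 and 2747 nt in the controls. On average that was 43.6% of the longest, with 4.87% of the genes lower. On the same transcript models, its 8 long transcripts (2225 to 6143 nt) held at least 36.0% and 31.9% of its TPM in the Numb exon 6 libraries. In the controls they held at least 25.9% and 33.0%, and the upper bound was 100% in every library. The order of Dlg1 above Llgl1 in TPM is therefore not an order of long transcripts. Prkci and Llgl1 were close to full length, at 96.7% and 97.2% of their longest transcripts of 4708 and 4303 nt. The 2 long transcripts of Llgl1 (4268 and 4303 nt) held at least 94.3% of its TPM in every library. Pard3 has 28 annotated transcripts, and its mean length was 3682 and 4260 nt with the Numb exon 6 morpholino and 4212 and 4227 nt with the control. Vangl2 had 5782 and 5229 nt with the Numb exon 6 morpholino, against 5659 and 3785 nt with the control.

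Within mice, the largest length shifts among members with at least 100 counts in every library were those of Vangl2 and Scrib in mouse 2. The log2 ratio of mean length, Numb exon 6 over control, was 0.031 in mouse 1 and 0.47 in mouse 2 for Vangl2, and -0.07 and -0.34 for Scrib. A shift at least that large in either direction occurred in 2.95% of the 11960 genes in mouse 2 for Vangl2 and in 5.30% for Scrib. For Dlg1 the ratios were 0.28 in mouse 1 and -0.030 in mouse 2, for Pard3 -0.19 and 0.011, and for Pard6a 0.24 and -0.11. The ratio of Scrib was below 0 and that of Vangl2 above 0 in both mice, while the shifts of Dlg1, Pard3 and Pard6a had opposite signs in the 2 mice. These are descriptions of 1 pair of libraries per mouse, with no test.

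**Figure D3:**
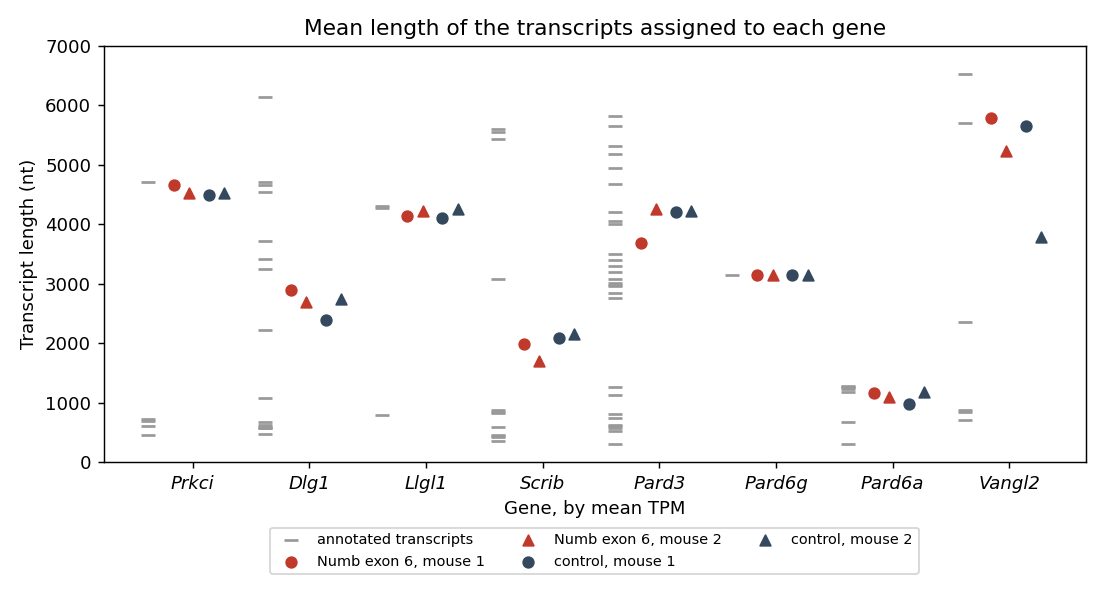
Mean length in nt of the transcripts assigned to 8 members with at least 100 estimated counts in every library, 1 point per library (red for Numb exon 6, dark blue for control, circles for mouse 1, triangles for mouse 2), beside the lengths of all annotated transcripts (grey dashes). Prkci and Llgl1 lie near their longest transcripts, Scrib between its short and long ones, and the control library of mouse 2 lies apart for Vangl2, at 3785 nt.

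Comparing the morpholinos asks what follows, in transcripts, when inclusion of Numb exon 6 is blocked as satellite cells activate. Of the 10 polarity genes, 0 were called higher and 0 lower (edgeR quasi-likelihood test, Benjamini-Hochberg adjusted p of 0.999 for each), as was the case for 0% of all 27551 genes in either direction. The number with an unadjusted p under 0.05 was 0 of 10, against 4.16% of all genes. With the mouse as a block it was also 0, against 6.09% of all genes. DESeq2 called 0 members with or without the block, and with the block 1 of 10 (Dlg1) had an unadjusted p under 0.05, against 7.15% of all genes. The median log2 fold change of the 10, Numb exon 6 minus control, was 0.061, beside 0.005 over all genes. The mice moved in opposite directions for 7 of the 10, which 43.9% of all genes did, while 1 was higher in both mice (28.1% of all genes) and 2 were lower in both (27.3%). With 1 library per morpholino in each mouse, the difference between the mice in their response could not be tested.

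Among the Par complex genes, Pard3, the scaffold, had 15.8 and 17.2 CPM in the Numb exon 6 libraries of mouse 1 and mouse 2, and 19.2 and 18.5 CPM in the controls. The groups did not overlap in CPM, as for 17.1% of all genes in this direction. The log2 fold change was -0.19 ± 0.15 (SE; n = 2 libraries a group), with a 95% interval of -0.57 to 0.18. In TPM, at 8.41 and 7.92 with the Numb exon 6 morpholino and 8.47 and 8.40 with the control, the groups did overlap; of the 4 libraries, that of mouse 1 with the Numb exon 6 morpholino had the lowest mean length of Pard3 transcripts, as given above. Prkci, the kinase, had 50.9 and 49.8 CPM with the Numb exon 6 morpholino, against 44.0 and 50.6 CPM with the control. Its log2 fold change of 0.09 ± 0.13 (SE) had an interval of -0.25 to 0.43, the narrowest of the 10, and a 2-fold difference lies outside it.

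The 3 Pard6 genes spread more widely. Pard6g had 5.91 and 5.16 CPM in the Numb exon 6 libraries and 4.14 and 6.69 CPM in the controls, so both Numb exon 6 values lay between those of the controls. Within mouse 1 its log2 ratio was 0.51 and within mouse 2 it was -0.37, with a log2 fold change of 0.033 ± 0.293 (SE; n = 2 libraries a group). Pard6a had 1.69 and 0.676 CPM with the Numb exon 6 morpholino, against 0.948 and 0.697 CPM with the control. The Numb exon 6 library of mouse 1 stood above the other three, and the log2 fold change of 0.53 ± 0.53 (SE) was -0.29 without that library. For Pard6b and Prkcz, the members with the fewest counts, the log2 ratios of mouse 1 were -0.93 and -1.02, and those of mouse 2 were 1.61 and 2.16. Their intervals, -1.97 to 4.25 and -1.87 to 3.15, span both directions, so no change could be resolved at these counts.

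Among the Scribble genes, Dlg1, a scaffold of the membrane-associated guanylate kinase family, showed the smallest p of the 10 genes. It had 27.1 and 18.8 CPM in the Numb exon 6 libraries and 16.6 and 17.9 CPM in the controls, so the groups did not overlap, as for 17.4% of all genes in this direction. The library of mouse 1 with the Numb exon 6 morpholino was the high one, and the value of mouse 2 lay close to its control. The log2 fold change was 0.41 ± 0.22 (SE; n = 2 libraries a group; edgeR adjusted p = 0.999), with an interval of -0.14 to 0.97, and leaving out that library of mouse 1 gave 0.12. In TPM the groups were also apart, at 18.3 and 13.8 with the Numb exon 6 morpholino and 12.9 and 12.5 with the control.

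Scrib, the scaffold that gives the module its name, stood at 8.57 and 10.02 CPM under the Numb exon 6 morpholino and at 8.80 and 14.1 CPM in the controls. The control library of mouse 2 was the high one. The log2 fold change was -0.30 ± 0.28 (SE), and 0.069 without that library. On log2(TPM + 1) it was -0.009 ± 0.267 (SE). The TPM of Scrib went opposite ways in the mice, at 8.46 with the Numb exon 6 morpholino against 7.86 in mouse 1, and 11.5 against 12.6 in mouse 2. Its mean length was lower with the Numb exon 6 morpholino in both mice, as given above. The part of length in the lower count was not tested. Llgl1, a substrate of aPKC, had 26.97 and 24.4 CPM with the Numb exon 6 morpholino, against 24.7 and 26.0 CPM with the control, and its log2 fold change was 0.019 ± 0.142 (SE) with an interval of -0.34 to 0.38. Its 3′ end overlaps Flii on the other strand, and 0.309% of its 50-base stretches are shared with that gene.

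Vangl2, the planar polarity protein, had 3.16 and 3.05 CPM in the Numb exon 6 libraries and 2.67 and 4.18 CPM in the controls. Both Numb exon 6 values lay between those of the controls. Its log2 fold change was -0.14 ± 0.30 (SE; n = 2 libraries a group), with an interval of -0.90 to 0.63, and it was 0.21 without the control library of mouse 2. In TPM that library was the high one as well, at 2.12 against 0.875 in the control of mouse 1 and 1.07 and 1.15 with the Numb exon 6 morpholino.

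**Figure D4:**
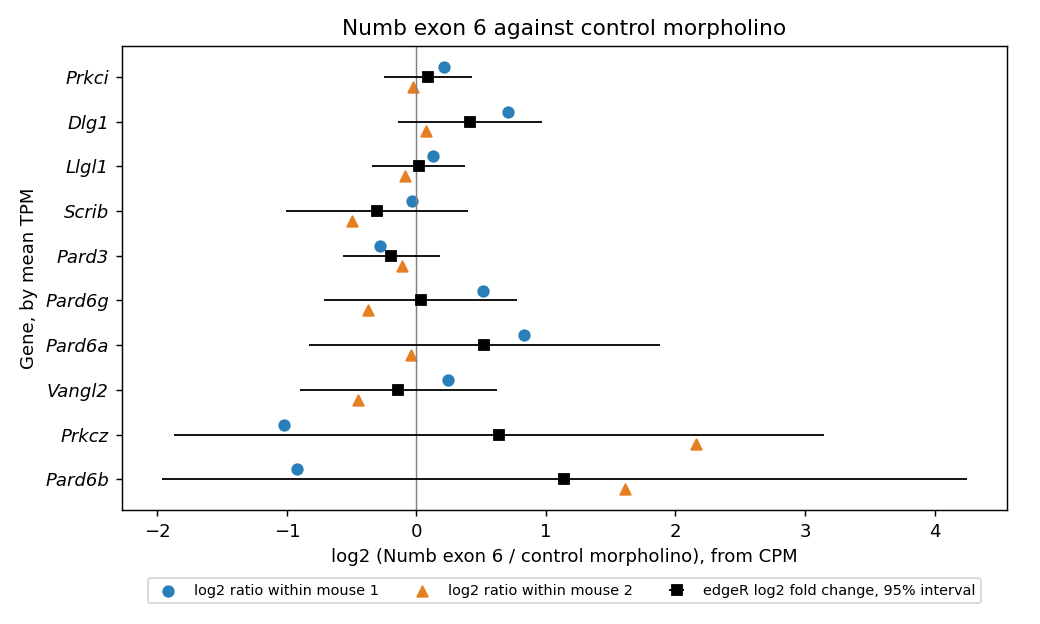
Log2 ratio of CPM, Numb exon 6 over control morpholino, within mouse 1 (blue circles) and mouse 2 (orange triangles), with the edgeR log2 fold change and its 95% interval (black squares and bars, n = 2 per group). Every interval crosses 0, and the ratios of 7 genes lie on opposite sides of 0. The narrowest interval is that of Prkci (-0.25 to 0.43) and the widest that of Pard6b (-1.97 to 4.25).

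The wider polarity machinery was described by 5 lists of known genes, which hold the 10 members as well. By edgeR 0 genes of any list were called. Of 29 tested genes of the Par and aPKC module, 12 had lower and 3 had higher values in both mice, and the median log2 fold change was -0.05. Of 11 genes of the Crumbs module, the apical complex partnered with PAR6, 6 were higher and 2 lower, with a median of 0.07. The 16 genes of the Scribble module had 5 higher and 2 lower and a median of 0.008, and the 30 genes of planar cell polarity had 8 higher and 5 lower and a median of 0.046. Of 29 genes of spindle orientation and asymmetric division, 11 were higher and 9 lower, with a median of 0.021. All genes together had 28.1% higher and 27.3% lower in both mice.

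In the Par and aPKC list the smallest p values among genes of sufficient abundance (mean log2 CPM from 3 upward) belonged to Cab39, Ywhag and Pard3b. Cab39, a subunit that activates the kinase LKB1 (PAR4 in the worm), had 83.4 and 90.7 CPM with the Numb exon 6 morpholino, against 108 and 102 CPM with the control (log2 fold change -0.27 ± 0.12, SE; n = 2 libraries a group). Ywhag, a 14-3-3 protein of the family that binds phosphorylated PAR3, stood at 265 and 245 CPM, against 361 and 283 CPM (-0.34 ± 0.15, SE). Pard3b had -0.30 ± 0.16 (SE). All of these were lower in both mice and none passed (edgeR adjusted p = 0.999 for each, and 0.796 with the mouse as a block). Sqstm1, a scaffold that binds aPKC, was the most abundant gene of the list at a mean of 5454 TPM, with a log2 fold change of -0.002 ± 0.207 (SE). At an unadjusted edgeR p under 0.05 stood 1 of the 29 genes of the list, against 4.16% of all genes. With the mouse as a block 3 of the 29 did, against 6.09% of all genes. The 1 gene without the block was Wwc1 (KIBRA), named here after its values were seen. Wwc1 stood at very low levels, with 0.112 and 0.0470 CPM in the Numb exon 6 libraries and 0.355 and 0.301 CPM in the controls.

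In the Crumbs list Lin7a, Amotl2 and Mpdz had log2 fold changes of 0.22 ± 0.15, 0.23 ± 0.21 and -0.11 ± 0.11, and Lin7c, the most abundant at 96.9 TPM, had 0.15 ± 0.21 (SE; n = 2 libraries a group). In the Scribble list Git1, Cask and Dlg5 had -0.17 ± 0.17, -0.09 ± 0.12 and -0.11 ± 0.16, and Erbin, the most abundant at 49.0 TPM, had -0.07 ± 0.15. In the planar polarity list Prickle2, Daam1 and Ror1 had 0.19 ± 0.16, -0.17 ± 0.15 and 0.21 ± 0.20; Ror1, a receptor of Wnt5a, was the most abundant at 60.7 TPM. None of these 11 genes reached an unadjusted edgeR p under 0.05.

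The list of spindle orientation and asymmetric division held 2 of 29 genes at an unadjusted edgeR p under 0.05, Carm1 and Dag1, against 4.16% of all genes. With the mouse as a block it held 3, against 6.09% of all genes. Carm1, the arginine methyltransferase that methylates PAX7 in satellite cells, had 13.9 and 13.2 CPM in the Numb exon 6 libraries and 21.5 and 19.1 CPM in the controls. Its log2 fold change was -0.58 ± 0.16 (SE; n = 2 libraries a group; edgeR adjusted p = 0.999). Dag1, which encodes dystroglycan, a membrane partner of dystrophin, had 609 and 360 CPM with the Numb exon 6 morpholino, against 285 and 264 CPM with the control (0.82 ± 0.26, SE; edgeR adjusted p = 0.999). Both moved the same way in both mice, and neither passed with the mouse as a block (edgeR adjusted p = 0.796). Ndel1, a dynein regulator and the most abundant gene of the list at 247 TPM, had 0.09 ± 0.11 (SE), and Numb, the third by p, had 0.27 ± 0.14 (SE).

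The 2 mice were also compared, 1 animal against 1, so that the SE and p measure the spread between the libraries of an animal. Here 0 of the 10 genes were called, against 0.0109% of all genes higher in mouse 2 and 0.0145% lower, and 1 of 10 (Pard6b) had an unadjusted p under 0.05, against 8.31% of all genes. The mice did not overlap in CPM for 3 of the 10: Pard6b and Scrib were higher in mouse 2, as were 20.9% of all genes, and Pard6a was lower, as were 18.8%. Pard6a stood at 0.676 and 0.697 CPM in the Numb exon 6 and control libraries of mouse 2, against 1.69 and 0.948 CPM in those of mouse 1. Its log2 fold change, mouse 2 minus mouse 1, was -0.94 ± 0.41 (SE, n = 2 libraries per mouse; edgeR adjusted p = 0.624), and -0.47 when the Numb exon 6 library of mouse 1 was left out. Scrib stood at 10.02 and 14.1 CPM in mouse 2, against 8.57 and 8.80 CPM in mouse 1, with 0.48 ± 0.21 (SE; edgeR adjusted p = 0.632), and 0.20 when the control library of mouse 2 was left out. On log2(TPM + 1) the value of Scrib was 0.51 ± 0.15 (SE). Pard6b had 2.38 ± 0.89 (SE; edgeR adjusted p = 0.575) at the low counts given above, and 1.34 when the Numb exon 6 library of mouse 2 was left out. Prkci, Llgl1 and Pard3 had 0.08 ± 0.12, -0.037 ± 0.125 and 0.026 ± 0.157 (SE). Across all 4 libraries the TPM of Pard3 ranged from 7.92 to 8.47 and that of Llgl1 from 11.2 to 12.8.

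By position in GRCm38, as GENCODE vM21 annotates it, Pard3 lies on chromosome 8 (127063893 to 127612286, plus strand), Pard6a on chromosome 8 (105701148 to 105703496, plus), Pard6b on chromosome 2 (168081004 to 168101203, plus) and Pard6g on chromosome 18 (80046890 to 80119639, plus). Prkci lies on chromosome 3 (30995747 to 31052959, plus), Prkcz on chromosome 4 (155260129 to 155361361, minus) and Llgl1 on chromosome 11 (60699723 to 60714186, plus). Dlg1 lies on chromosome 16 (31663443 to 31875129, plus), Scrib on chromosome 15 (76047158 to 76069784, minus) and Vangl2 on chromosome 1 (172000960 to 172028444, minus). The 50-base stretches of the transcripts of Pard3, Pard6a, Pard6b, Pard6g and Scrib occur in no other annotated transcript, and for Prkci, Dlg1 and Vangl2 at most 0.727% do. The Pard6 paralogues can therefore be told apart by such stretches.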

How the data were processed

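RNA was sequenced from satellite cells of 2 mice, 1 library per morpholino and mouse. SMART-Seq2 cDNA was made from 5 ng of RNA, per the labels' protocols; it does not mark the strand. HISAT2 2.1.0, StringTie 1.3.6 and GRCm38 are named in the submitters' processing notes; neither the annotation release nor the counting steps could be read from them. The authors deposited estimated counts, whole numbers derived from coverage, and TPM, scaled to transcript length and library.

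Groups and mice came from the labels. The main test was edgeR 4.0.16 in R 4.3.3 (quasi-likelihood, robust, TMM, default expression filter, no block, Benjamini-Hochberg adjustment over all 27551 genes at 0.05); the block on the mouse was an alternative. Same-numbered libraries come from the same mouse, which pairs them; their deviations from the group means correlated at 0.40 over the more abundant genes (mean log2 CPM from 3 upward) and at 0.056 over all tested genes. SEs derive from the quasi-likelihood statistic, intervals from its t distribution, CPM is scaled by TMM, and within-mouse log2 ratios use a prior count of 2. The alternatives used RLE factors, other filters, DESeq2 1.42.0, limma 3.58.1 (voom; log2(TPM + 1); log2(TPM + 0.1)), counts divided by 4, and each library left out. The scripts were checked on simulated counts. Mean transcript length is the count over TPM, scaled by genes with 1 transcript in GENCODE vM21. Transcripts were split into short and long at the largest relative gap in annotated length.

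All 10 members are named, as are, per wider list, the most abundant gene and, from a mean log2 CPM of 3 upward, the 3 genes with the smallest p. The members and lists were chosen with earlier results of these data known. The libraries of a group come from separate animals.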

Additional observations from a re-analysis of the deposited data

How the results depend on the processing

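No alternative called any of the 10 polarity genes in either comparison. For the morpholinos, edgeR called 0 genes higher and 0 lower over the whole table; the counts were 5 and 5 without a filter on low counts, 1 and 0 at a CPM of at least 5 in 2 libraries, 39 and 26 in DESeq2, and 104 and 55 in DESeq2 with the replicate block. Leaving out 1 library gave 0 to 1 higher and 0 lower, with 1 gene called when either Numb exon 6 in mouse 2 or the control in mouse 1 was the library left out. For mouse 2 against mouse 1, edgeR called 3 genes higher and 4 lower. These counts were 0 and 1 with the morpholino as a replicate block, 80 and 39 without a filter, 36 and 7 at a CPM of at least 5, and 280 and 215 in DESeq2. They were 0 and 1 without either library of mouse 1, and, of mouse 2, 10 and 18 when its Numb exon 6 library was left out and 12 and 7 when its control library was; the lone library of an arm is then assumed to vary like the others. The number higher was 6 in limma-voom, 5 on log2(TPM + 0.1) and 5 with counts divided by 4, and the number lower was 1 on log2(TPM + 1). The cause was not tested. With the mouse as a replicate block the edgeR log2 fold changes, Numb exon 6 minus control, were 0.39 ± 0.19 for Dlg1, -0.19 ± 0.13 for Pard3, -0.27 ± 0.18 for Scrib, 0.09 ± 0.11 for Prkci, 0.0177 ± 0.1249 for Llgl1, 0.070 ± 0.279 for Pard6g, 0.40 ± 0.40 for Pard6a, -0.10 ± 0.28 for Vangl2, 0.59 ± 1.28 for Prkcz and 0.36 ± 1.05 for Pard6b (SE). The value of Pard6b was 1.14 without the block and 0.072 in limma-voom. The block changed no call among the members.

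Without 1 library, the log2 fold changes for the morpholinos ran from -0.29 to 1.04 for Pard6a, -1.56 to 2.03 for Pard6b, -0.27 to 0.41 for Pard6g, -0.0081 to 0.18 for Prkci, -0.49 to 1.64 for Prkcz, -0.0593 to 0.0883 for Llgl1, -0.61 to 0.0688 for Scrib and -0.43 to 0.21 for Vangl2. Dlg1 (0.12 to 0.65) and Pard3 (-0.26 to -0.14) kept their sign. Between the mice, the values without 1 library changed sign for Pard3 (-0.11 to 0.17), Prkci (-0.021 to 0.19), Prkcz (-1.15 to 1.12), Llgl1 (-0.10 to 0.024) and Dlg1 (-0.56 to 0.14). They kept their sign for Pard6a (-1.30 to -0.47), Pard6b (1.34 to 2.98), Pard6g (0.002 to 0.51), Scrib (0.20 to 0.70) and Vangl2 (0.06 to 0.52). Between the mice Pard3 also had -0.043 on log2(TPM + 1) and -0.048 on log2(TPM + 0.1), and Prkcz had -0.087 in limma-voom. By estimated counts in place of TPM, Pard6a held a mean of 15.1% and Pard6g of 81.9% of the Pard6 pool, against 33.2% and 64.6%, since counts grow with transcript length. At a CPM of at least 5, Pard6a, Pard6b, Prkcz and Vangl2 gave no value. Few counts limit Pard6b and Prkcz above all.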
